A study of Mus musculus with 3 samples.

Results

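The 67 genes described here are the small nucleolar RNAs (snoRNAs) and related small nuclear RNAs of mouse embryonic stem cells (ESCs) that could be counted in a YTHDF2 RNA immunoprecipitation sequencing (RIP-seq) experiment. They were selected on measured values, as the rows of the raw count table whose symbol starts with Snora, Snord, Scarna or Rnu and a digit and whose counts over the 3 libraries sum to at least 10. Of 49997 genes in the table, 165 carry such a symbol. By symbol, 27 of the 67 are H/ACA snoRNAs, 39 are C/D snoRNAs and 1 is Rnu7, the U7 small nuclear RNA of histone mRNA processing. The same symbols cover Cajal body and spliceosomal RNAs, but the data held none of these at a countable level. None of the 9 Scarna genes reached the minimum, with at most 6 counts in all, and 13 of the 14 spliceosomal genes had no count while the other had 1. What is described is therefore snoRNAs, and no comparison was made for Cajal body and spliceosomal RNAs.

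snoRNAs are short, stable RNAs that act in the nucleolus as the guides of protein complexes. H/ACA snoRNAs, named for their box H and for an ACA near the 3′ end, direct the enzyme dyskerin to uridines that become pseudouridine. C/D snoRNAs, named for a C box near the 5′ end and a D box near the 3′ end, direct fibrillarin to riboses that become methylated. In mammals most lie in introns of other genes, called hosts, and are trimmed out of the removed intron, so host RNA and snoRNA come from 1 primary transcript. YTHDF2 is a cytoplasmic reader of N6-methyladenosine (m6A) in RNA, which promotes the decay of the transcripts it binds.

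The libraries were 1 input and 2 YTHDF2 IP replicates (IP1 and IP2), all of the E14 line after 24 h of Dox. These ESCs carry a Dox-inducible Dux transgene and, in the system of the study, a tdTomato reporter driven by the MERVL promoter. Dux, a transcription factor of the 2-cell embryo, was thus under induction in the input and the IPs alike. The study asked which transcripts YTHDF2 binds in such cells. The labels do not say that the IP replicates came from separate cultures, so p-values measure the spread between these libraries alone, which may be technical, and the input has no replicate. No IP with a control antibody was analysed here. The labels describe IP of extracted RNA and the methods IP from a cleared lysate, and the study calls the RNA that the IP was set against total RNA, without saying whether it came from whole cells or from the lysate.

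Totals were 36986994 counts in the input, 35259827 in IP1 and 35888743 in IP2. The members took 0.00736% of the input counts, 0.00263% and 0.00267% of the IP counts, so most rest on few counts. Markers bore out the labelled cell type. The 6 ESC markers summed to between 6175 and 6870 CPM (counts scaled to a common library size by TMM), the 6 markers of 2-cell-like cells to between 2003 and 3014, the 4 of primitive endoderm to between 11.8 and 18.9 and the 5 of fibroblasts to between 33.7 and 37.5, with Col3a1 at 0. Libraries were size-selected on beads and read at 150 bases, while members span 45 to 221 bases. The part of that selection in these values was not tested.

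H/ACA members were 62 to 205 bases long, with a median of 122, and C/D members 45 to 221, with a median of 73. The sequences below are those the counts were made over, from the RefSeq annotation of GRCm38.p6, which places all 165 named genes at the positions given in the table (mm10). They were chosen because the results below turn on them. The first 6 are H/ACA snoRNAs, with the ACA found in the last 8 bases in capitals. Snora73a and Snora73b are the most counted of that class and each other's near-copy. Snora65, Snora7a and Snora31 follow them in level, and Snora16a is one of the lowest in IP.
Snora73b: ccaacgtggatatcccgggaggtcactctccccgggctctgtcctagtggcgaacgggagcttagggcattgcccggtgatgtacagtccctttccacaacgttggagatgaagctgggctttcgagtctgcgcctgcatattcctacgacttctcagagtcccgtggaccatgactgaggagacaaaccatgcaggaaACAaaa
Snora73a: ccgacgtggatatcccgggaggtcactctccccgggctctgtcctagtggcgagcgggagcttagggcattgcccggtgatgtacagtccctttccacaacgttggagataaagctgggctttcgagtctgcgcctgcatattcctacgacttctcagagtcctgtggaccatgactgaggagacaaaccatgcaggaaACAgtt
Snora65: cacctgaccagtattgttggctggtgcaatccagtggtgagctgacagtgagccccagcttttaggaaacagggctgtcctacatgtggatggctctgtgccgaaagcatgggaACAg
Snora7a: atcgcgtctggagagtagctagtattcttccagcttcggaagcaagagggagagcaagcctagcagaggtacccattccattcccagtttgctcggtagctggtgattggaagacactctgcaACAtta
Snora31: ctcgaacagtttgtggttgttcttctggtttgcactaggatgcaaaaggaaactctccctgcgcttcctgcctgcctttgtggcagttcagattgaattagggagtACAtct
Snora16a: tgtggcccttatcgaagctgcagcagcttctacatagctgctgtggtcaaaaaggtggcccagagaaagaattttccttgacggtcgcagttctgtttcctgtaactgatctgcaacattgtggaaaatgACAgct
The positions, given 1-based, are chr4:132352322-132352526 on the minus strand for Snora73b and chr4:132352775-132352979 on the minus strand for Snora73a, in neighbouring introns of Snhg3. Snora65 is at chr2:32963301-32963418 on the plus strand, in an intron of Rpl12. Snora7a is at chr6:115807975-115808103 on the minus strand, in an intron of Rpl32. Snora31 is at chr14:75847923-75848034 on the plus strand, in an intron of Tpt1. Snora16a is at chr4:132309465-132309600 on the plus strand, in an intron of Snhg12. In a global alignment Snora73a and Snora73b shared 198 of 205 bases, 96.6%, so reads that fit both equally were left out of either count.

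The next 2 are C/D snoRNAs. Where found, the C box letters TGATGA in the first 20 bases and the D box letters CTGA in the last 12 are in capitals. TGATGA was not found in that window of Snord52. Snord96a and Snord52 are the most counted of the class, and Snord52 is also among its depleted members.
Snord96a: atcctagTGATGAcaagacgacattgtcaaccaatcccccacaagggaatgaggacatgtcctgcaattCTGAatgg
Snord52: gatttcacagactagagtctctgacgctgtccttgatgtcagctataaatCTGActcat
Snord96a lies at chr11:48802033-48802109 on the plus strand, in an intron of Rack1, and Snord52 at chr17:34950950-34951008 on the minus strand, in an intron of the noncoding gene 1110038B12Rik.

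The letters bore out the classes named by symbol. ACA stood in the last 8 bases of 26 of the 27 H/ACA members, 96.3%, the exception being Snora81, and in none of the 39 C/D members. CTGA stood in the last 12 bases of 37 C/D members, 94.9%, with Snord53 and Snord35b the exceptions. TGATGA stood in the first 20 bases of 15 C/D members, 38.5%. Among 5064 other genes of up to 300 bases these letters were found in 21.1%, 9.85% and 5.17%, on the strand of the gene. This background is not free of snoRNAs. Of all 5709 other genes of up to 300 bases, 2194 are annotated as snoRNA or snRNA under other symbols. GGACT, a form of the sequence in which m6A is often placed, was in 4 H/ACA members (14.8%) and 4 C/D members (10.3%) against 9.87% of the other short genes. The matches given are those on the strand of the gene, with GGACT anywhere in it and the box letters in the stated windows. Absence of a match says only that these letters are not there.

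snoRNAs were less abundant in YTHDF2 IP than in the input, H/ACA more so than C/D in the values. Summed over the 27 H/ACA members, the libraries held 1462 counts in the input, 307 in IP1 and 392 in IP2. After TMM scaling these were 41.3, 8.5 and 10.7 CPM, and the IP libraries were at 20.6% and 25.9% of the input. The mean was 23.2%, 4.3-fold lower. Snora73a and Snora73b made up a large share of this sum, and without them, a choice made after seeing the data, the IP libraries were at 24.7% and 36.2% of the input, a mean of 30.5%. Summed over the 39 C/D members, counts were 1252, 613 and 561, or 35.4, 17.0 and 15.3 CPM. The IP libraries were at 48.0% and 43.3% of the input, a mean of 45.6% or 2.19-fold lower, and at 43.3% on average without Snord96a. Both IP libraries lay below the input in each class. Exact Poisson intervals (95%) of the input and IP sums did not overlap, but they treat the mates of a pair as independent and so are too narrow even for counting error, and no test was made of the sums or of the difference between the classes.

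**Figure D1:**
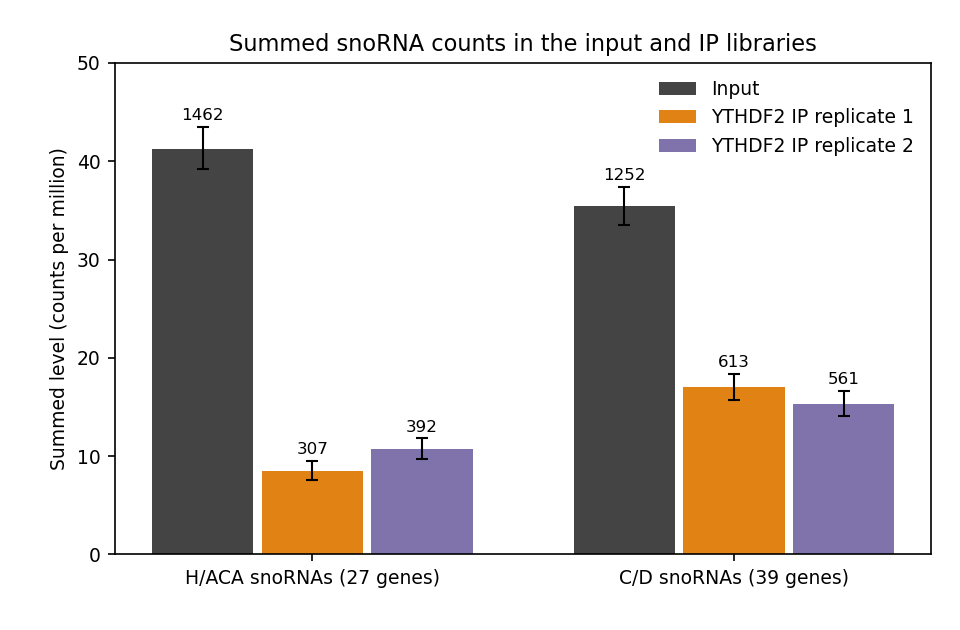
Summed level of the 27 H/ACA and 39 C/D snoRNAs in CPM (y axis, TMM-scaled) in the input and in each YTHDF2 IP library, with exact 95% Poisson intervals as error bars and raw counts above the bars. The H/ACA sum fell from 41.3 in the input to 8.5 and 10.7 in the IPs, and the C/D sum from 35.4 to 17.0 and 15.3.

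Among single snoRNAs, both IP libraries were below the input in 56 of the 67 members and above it in 4. Of the 54 that passed the filter on low counts and were tested, both IP libraries were below in 47, 87.0%, against 45.3% of all 19601 tested genes, and above in 3, 5.56%, against 44.2%. By edgeR's quasi-likelihood test, 23 of the 54 (42.6%) were depleted in IP at a Benjamini-Hochberg adjusted p under 0.05 and a fold over 2, against 14.0% of all tested genes. None was enriched, against 15.2% of all tested genes, and none rose at an unadjusted p under 0.05 in this fit or in DESeq2, while 1, Snord35b, did in 4 of the other edgeR settings. H/ACA members made up 14 of the 23, out of 23 tested, and C/D members 9, out of 31 tested. The number of calls and the gap to the other genes depended on the test. DESeq2 called 8 of these 23 (6 H/ACA and 2 C/D), which is 14.8% of the 54, near the 10.6% of all tested genes that it called depleted. With no filter on low counts edgeR called 15 of all 67 (22.4%), against 8.37% of all genes tested.

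The median log2 fold change was −1.91 over the tested H/ACA members, with a range from −7.68 to −0.34, and −1.16 over the tested C/D members, from −7.12 to 1.75. Over all tested genes it was 0.01, with quartiles of −0.72 and 0.81. With the 2 members that had no IP count set at their bounds, the class medians were −1.91 and −1.16 again. These are descriptions of the genes that could be counted and support nothing by themselves. The rule took genes by their summed counts, so a gene could enter by being high in the input or in the IP libraries. Of the members, 19 reached 10 counts through the input alone and 5 through the IP libraries together alone. Of the 16 tested among these 19, 11 were depleted, calls that the selection favoured, against 12 of the 36 tested members that reached 10 counts in the input and in the IP libraries together. At a minimum of 30 counts, 18 of 37 tested members were depleted, and at 100 counts 6 of 11.

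**Figure D2:**
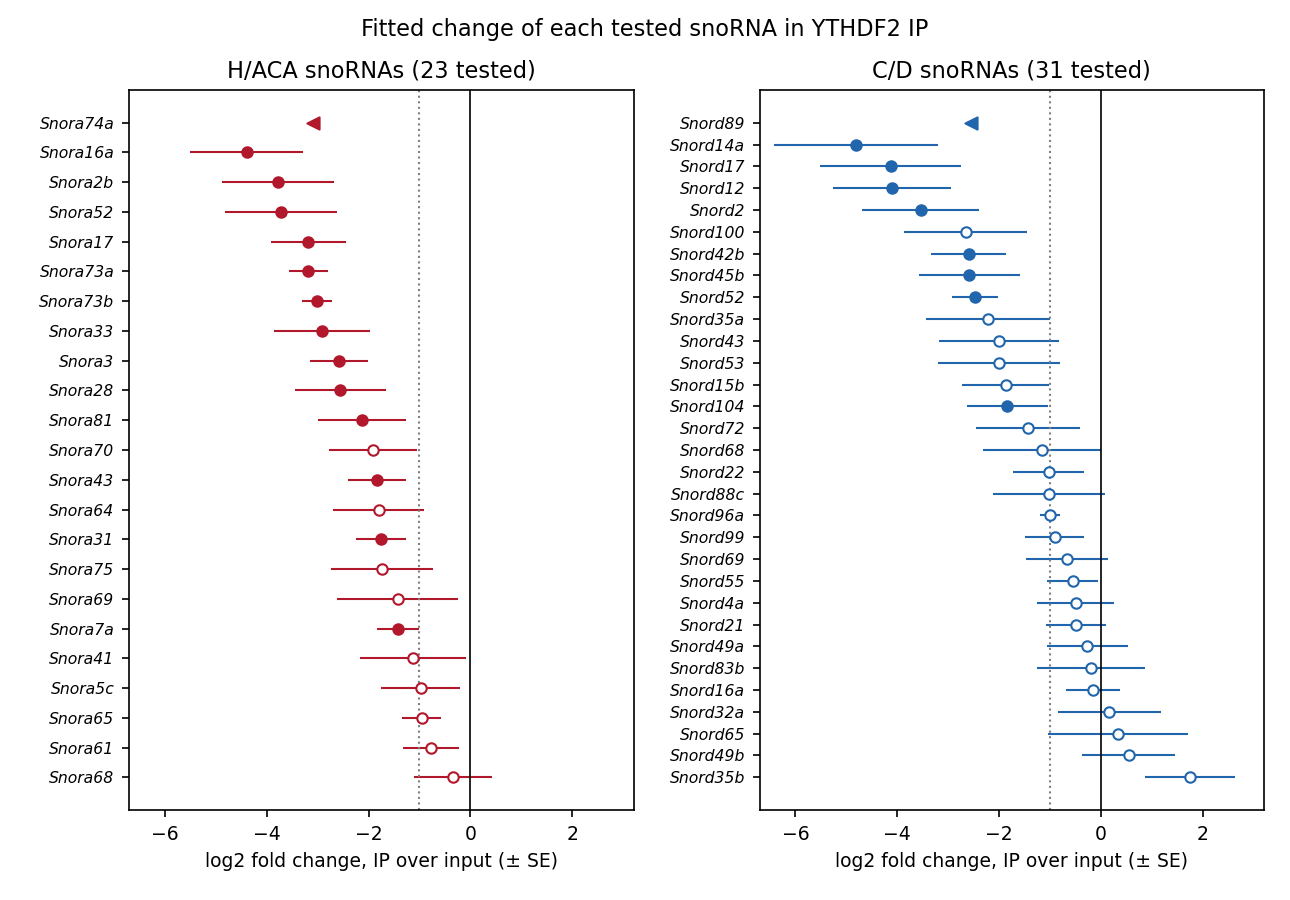
Fitted log2 fold change of IP over input (x axis) with its SE for the 23 tested H/ACA and 31 tested C/D snoRNAs, in order of the value. Filled points were called depleted, open points were not called, triangles stand at the upper bound of the 2 members with no IP count, and the dotted line marks a fold of 2. The 23 H/ACA values lie below 0, and 4 of the 31 C/D values lie above it.

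The H/ACA class was led by Snora73b and Snora73a, the U17 snoRNAs, which act in the cleavage of the precursor of 18S rRNA rather than as known guides of pseudouridine. Snora73b had 365 counts in the input, 58 in IP1 and 35 in IP2. Its log2 fold change was −3.01 (SE 0.29, adjusted p = 4.25e-15, edgeR). Snora73a had 204, 24 and 22 counts. Both were far below the input in each IP library, and Snora73a fell by 3.18 on the log2 scale (SE 0.39, adjusted p = 3.22e-11, edgeR). Per kilobase of length the 2 stood at 50.3 and 28.1 CPM in the input, the highest levels of the class, and at 7.84 and 3.24 in IP1 and 4.66 and 2.93 in IP2. There, Snora65 at 12.7 and 13.6 CPM per kilobase was the highest of the class.

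Snora65, a guide of large-subunit rRNA, had 107 counts in the input, 54 in IP1 and 59 in IP2. Both IP libraries were below the input, but the change was just under the fold threshold, at −0.96 (SE 0.38, adjusted p = 0.0264, edgeR), and it was not called. With the GC trend over all genes removed it was, at −1.32 (adjusted p = 0.00235, edgeR, from 0.00235 to 0.255 over the alternatives). Snora7a, which lies in the ribosomal protein gene Rpl32, had 102, 30 and 48 counts and fell by 1.42 on the log2 scale (SE 0.42, adjusted p = 0.00256, edgeR). Snora31 had 84, 14 and 37 counts, with both IPs below the input and a gap of over 2-fold between them. It fell by 1.75 (SE 0.49, adjusted p = 0.00139, edgeR). Snora3, in Rpl27a, had 76 counts in the input against 5 and 21, and fell by 2.58 (SE 0.57, adjusted p = 6.49e-05, edgeR). The calls of Snora7a and Snora31 were lost in DESeq2, at adjusted p-values of up to 0.105 and 0.0987 among the alternatives, and that of Snora7a was also lost with a fixed dispersion and that of Snora31 with no filter.

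The lowest H/ACA values among depleted members were those of Snora74a, Snora16a and Snora2b. Snora74a, also known as U19, had 25 counts in the input and none in either IP library. Against a floor of 3 counts per library it was at least 8.57-fold lower in IP (adjusted p = 0.000397, edgeR). Snora16a had 33 counts in the input, 0 in IP1 and 3 in IP2. The ratio of its summed IP level to the input was 0.0442, with a 95% counting interval from 0.00868 to 0.141 (adjusted p = 0.000432, edgeR). Snora2b had 28, 0 and 4 counts, with a ratio of 0.0695 (interval 0.0177 to 0.199, adjusted p = 0.00233, edgeR). In each of these 3, no IP library came near the input, although the IP libraries rest on at most 4 counts. All 3 reached the minimum of 10 counts through the input alone, so that they are low in IP is in part set by their selection. The call of Snora2b was lost in DESeq2 (adjusted p = 0.0967, from 0.000257 to 0.0967 over the alternatives). At the other end, Snora68 had 21, 10 and 24 counts and a log2 fold change of −0.34 (SE 0.77, adjusted p = 0.724, edgeR), with the input between the IP values. It was named after its values were seen.

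The C/D class was led by Snord96a, which guides methylation of 5.8S rRNA and had the highest level per length of all 67 members, 156.0 CPM per kilobase in the input. It had 425 counts in the input, 221 in IP1 and 217 in IP2. The IP libraries agreed closely and lay below the input, 1.99-fold lower, at a log2 fold change of −1.0 (SE 0.20, adjusted p = 1.16e-05, edgeR). This is past the p threshold and just short of the fold threshold, so Snord96a was not among the calls. Snord52 had 122, 20 and 25 counts and fell by 2.47 on the log2 scale (SE 0.45, adjusted p = 1.55e-06, edgeR). It was the C/D snoRNA with the smallest adjusted p among those called.

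The next 4 C/D members by level were not called. Snord55 had 54 counts in the input, 43 in IP1 and 32 in IP2, at −0.56 (SE 0.50, adjusted p = 0.341, edgeR). Snord16a had 42, 29 and 48 counts, with the input between the IP values, at −0.16 (SE 0.53, adjusted p = 0.811, edgeR). Snord99, in Snhg12, had 45, 34 and 15 counts, at −0.91 (SE 0.58, adjusted p = 0.173, edgeR). Both IPs were below the input, and they differed from each other by over 2-fold. Snord21, in Rpl5, had 38, 34 and 21 counts, at −0.50 (SE 0.59, adjusted p = 0.477, edgeR). For each of these 4 a loss of 2-fold lies within 2 SE of the value, and no change was detectable at this depth. With the GC trend over all genes removed Snord55 was called, at −1.49 (adjusted p = 0.0105, edgeR, from 0.0105 to 0.65 over the alternatives).

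**Figure D3:**
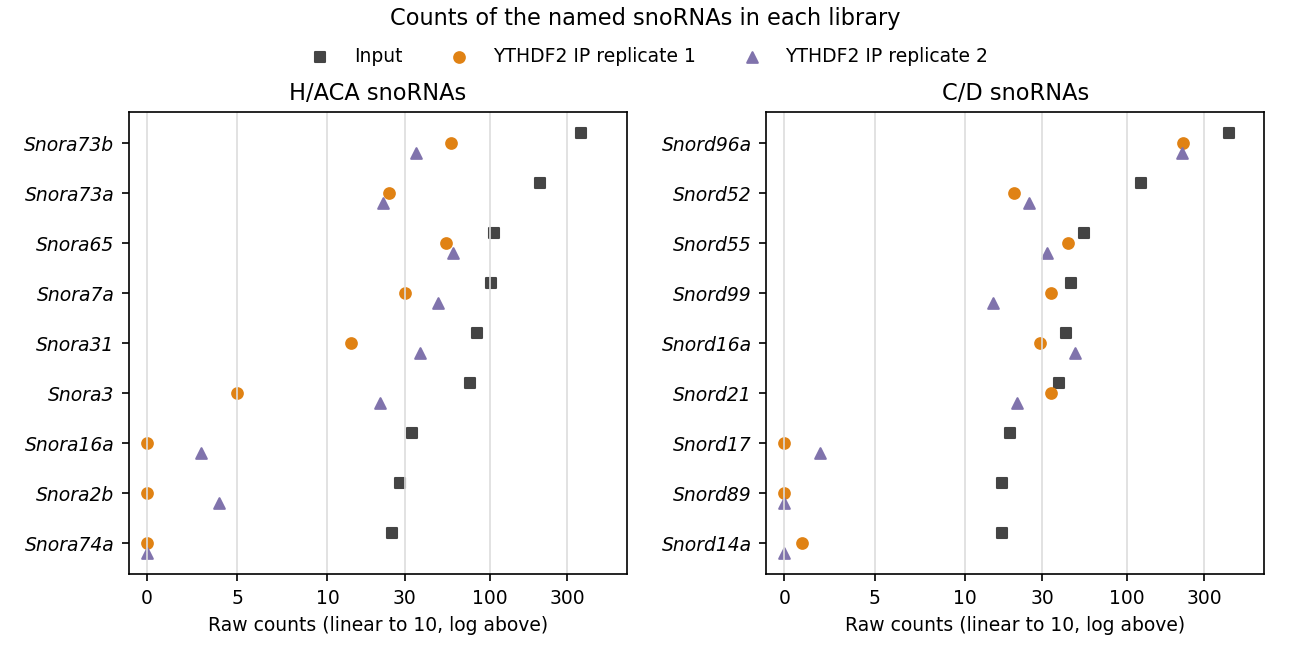
Raw counts (x axis, linear to 10 and logarithmic above) of the 9 named H/ACA and 9 named C/D snoRNAs in the input and in each YTHDF2 IP library. Except for Snord16a, whose input value of 42 lies between the IP values of 29 and 48, the input lies to the right of both IP libraries for each gene.

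The lowest C/D values among depleted members were those of Snord89, Snord14a and Snord17. Snord89, which lies outside an annotated host, had 17 counts in the input and none in the IPs, at least 5.83-fold lower (adjusted p = 0.00333, edgeR). Snord14a, a copy of U14, which is needed to process 18S rRNA, had 17 counts in the input, 1 in IP1 and 0 in IP2. Its ratio was 0.0286, with a counting interval from 0.000685 to 0.183 (adjusted p = 0.00764, edgeR). Snord17, the longest C/D member at 221 bases, had 19, 0 and 2 counts and a ratio of 0.0512 (interval 0.00578 to 0.212, adjusted p = 0.00803, edgeR). These 3 also reached the minimum through the input alone. The calls of Snord14a and Snord17 were lost in DESeq2, with adjusted p-values of up to 0.11 and 0.134 among the alternatives. The call of Snord89 was lost with no filter on low counts (up to 0.0535). The other U14 copies, Snord14c, Snord14d and Snord14e, lie in introns of Hspa8 and had 6, 7 and 6 counts, 7, 2 and 1, and 1, 9 and 1 in the order input, IP1 and IP2. They were not tested. Snord14c and Snord14d are 97.7% identical, so their counts exclude reads that fit both.

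Members in opposite directions stood out in the pair Snord35a and Snord35b, 73.9% identical over 92 aligned positions and named after their values were seen. Snord35b had 8 counts in the input against 31 and 25 in the IPs, above the input in both. Its log2 fold change of 1.75 was the highest of all tested members, but it did not pass the test (SE 0.88, adjusted p = 0.0818, edgeR). It ranged from 1.64 to 1.90 over the alternatives that could be tested, without being called in any. With IP1 alone it was 1.91 and with IP2 alone 1.58. Snord35a had 14, 4 and 2 counts, at −2.22 (SE 1.21, adjusted p = 0.11, edgeR). Neither was called, and the difference between them was not tested. The other members with both IP libraries above the input were Snord32a, with 10, 11 and 12 counts, Snord49b, with 11, 14 and 19, and Snord19, with 2, 6 and 3, which was not tested. Rnu7 had 7, 6 and 4 counts, a ratio of 0.695 with a counting interval from 0.239 to 2.15, and was not tested.

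The other 11 depleted members were 6 H/ACA and 5 C/D snoRNAs. Of the H/ACA members, Snora17 and Snora43 are given with their host below, and Snora33 with Rps12. Snora28, in the gene of the translation factor Eif5, had 29 counts in the input against 2 and 8 in the IPs, Snora81, in Eif4a2, 28 against 5 and 8, and Snora52, in Rplp2, 27 against 2 and 2. Their log2 fold changes were −2.55, −2.13 and −3.71. Both IP libraries were below the input in each. Of the C/D members, Snord42b had 45 counts in the input against 10 and 5, Snord104 30 against 11 and 6, Snord45b 24 against 6 and 2, and Snord2, also in Eif4a2, 24 against 0 and 4. Their values were −2.60, −1.84, −2.59 and −3.54. Snord12, in the noncoding gene Zfas1, had 27 counts in the input against 2 and 1, a ratio of 0.054 with a counting interval from 0.0105 to 0.176. None of these had an IP library at or above the input, but Snora33, Snora52, Snord45b, Snord12 and Snord2 reached the minimum through the input alone, which favours a low IP value. Of the 11, DESeq2 called Snora17 alone.

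The 2 IP libraries differed from each other more in the tested members than in the table at large. The 67 members had a median of 21 counts in the input, and the part of low counts in this gap was not tested. Between IP1 and IP2 the SD of the log2 ratio was 1.51 over the 54 tested members and 0.772 over all tested genes, and 20 of the 54 differed by over 2-fold against 10.3% of all tested genes. Snord49a was one such, with 20 counts in the input, 30 in IP1 and 4 in IP2. Its log2 fold change of −0.27 (SE 0.80, adjusted p = 0.791, edgeR) averages a value above the input and one below it. The median over H/ACA members was −2.60 with IP1 alone and −1.89 with IP2 alone, and that over C/D members −1.23 and −1.60.

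Longer H/ACA snoRNAs were lower in IP in the values. Of the 10 tested H/ACA members over 122 bases, 9 were depleted, with a median of −3.10 and a range from −7.68 to −1.42. Of these 9, 3 reached the minimum through the input alone (Snora74a, Snora16a and Snora52). Of the 13 of up to 122 bases, 5 were depleted, with a median of −1.73 and a range from −3.77 to −0.34, and 2 of the 5 reached it in that way. Of all tested genes 14.0% were depleted, and the difference between the length groups was not tested. Across the 23, Spearman's rho between length and log2 fold change was −0.613, and across the 31 tested C/D members −0.00726. Those points share the 3 libraries and many are in families or share hosts, so both are descriptions.

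Intronic position was shared by nearly all members. An annotated gene on the same strand held 65 of the 67 in an intron, and none of the 65 overlapped an exon of its host. The 65 lay in 49 hosts, and 13 hosts held 29 of them. The median distance to the nearest host exon was 77 bases (79 for H/ACA and 76 for C/D), with a range from 28 to 3958, and 54 were within the read length of 150 bases. Reads of the mature snoRNA and of the unspliced or removed intron around it cannot be told apart in these counts, and a read over both a snoRNA and a host exon was left out.

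In most pairs the snoRNA had a lower log2 fold change than the RNA of its host. The fitted value was below that of the host in 44 of 52 tested pairs and above it in 8. Of 21 depleted members with a tested host, the host was depleted for 7, not called for 14 and enriched for none. Over the 47 tested hosts the median was −0.37, with 8 depleted (17.0%) and 1 enriched (2.13%), against 14.0% and 15.2% of all tested genes. Across the 52 pairs Pearson's r was 0.283 and Spearman's rho 0.229, points that share libraries and in part hosts. Host RNA was mostly counted in far more reads, so its values have smaller errors, as in Rack1 (Snord96a) with 68267, 48629 and 51281 counts and a log2 fold change of −0.49 (SE 0.04, adjusted p = 6.53e-17, edgeR).

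**Figure D4:**
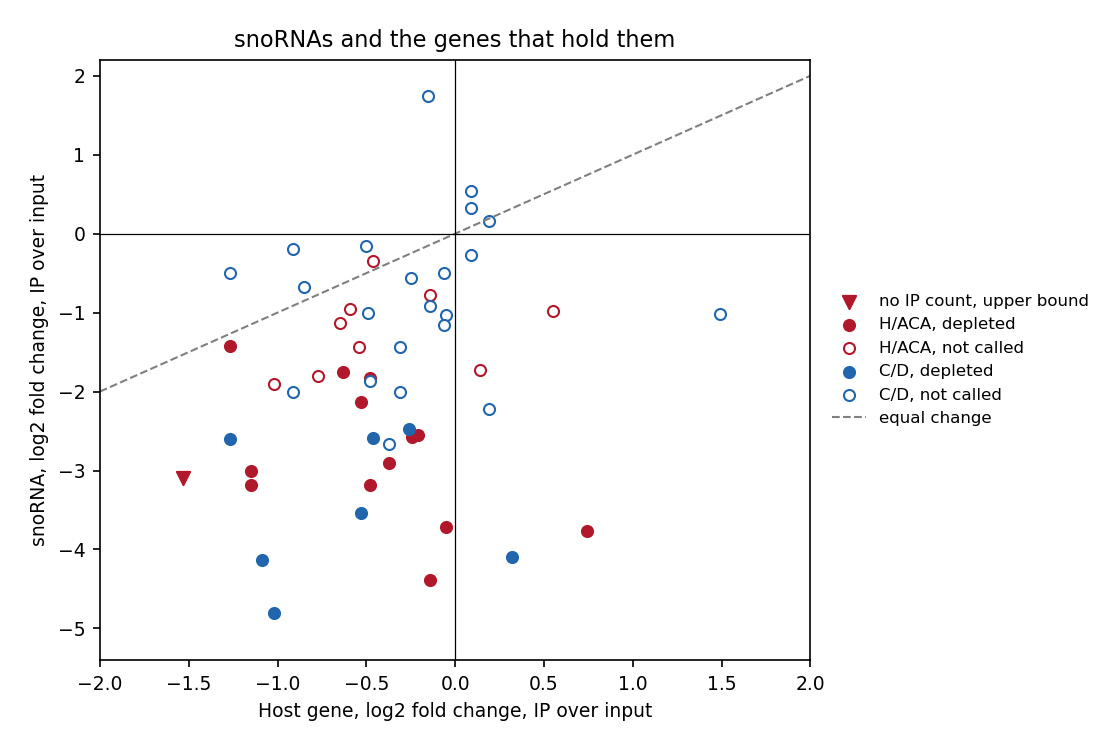
Log2 fold change of IP over input of each snoRNA (y axis) against that of the gene holding it (x axis) for the 52 tested pairs. Filled points are snoRNAs called depleted, the triangle is Snora74a at its upper bound, and the dashed line marks equal change. In 44 pairs the snoRNA lies below the line.

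The small nucleolar RNA host genes (Snhg) are noncoding genes whose exons are spliced to a long RNA while the snoRNAs come from the introns. Snhg3, which holds Snora73a and Snora73b, had 1259 counts in the input, 646 in IP1 and 519 in IP2, and was depleted, at −1.15 (SE 0.13, adjusted p = 8.87e-13, edgeR). Its 2 snoRNAs together had 569, 82 and 57 counts, 0.119 of the input level (interval 0.098 to 0.143), a lower ratio than that of the spliced host RNA, though the difference was not tested. Snhg4, the host of Snora74a, had 618, 233 and 208 counts and was also depleted, at −1.53 (SE 0.18, adjusted p = 9.78e-12, edgeR). Snhg12 was not called, with 693, 623 and 668 counts and −0.14 (SE 0.14, adjusted p = 0.398, edgeR), while of its 3 members Snora16a was depleted and Snord99 and Snora61 were not. Snora61 had 46, 27 and 28 counts, and it was called with the GC trend removed, at −1.47 (adjusted p = 0.0216, edgeR, from 0.0216 to 0.56 over the alternatives). Snhg7, with 296, 232 and 203 counts, was not called, at −0.48 (SE 0.22, adjusted p = 0.054, edgeR), and both of its members were depleted. These were Snora17 with 54, 8 and 4 counts and Snora43 with 61, 11 and 24, together at 0.199 of the input (interval 0.138 to 0.281).

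The host 1110038B12Rik, which holds Snord52, stood at −0.26 with 1595, 1374 and 1365 counts. The members in 2410006H16Rik, Snord49a, Snord49b and Snord65, summed to 36 counts in the input, 46 in IP1 and 34 in IP2, a ratio of 1.08 (interval 0.721 to 1.65), although the IP libraries of Snord49a and Snord65 lay on both sides of the input, and the host stood at 0.09. Over all 10 tested lncRNA hosts the median was −0.35 with 3 depleted, against 14.0% of all tested genes, the third being 2700038G22Rik at −1.78, whose member Snord93 was not tested. Over the 14 tested members in 8 of these hosts it was −2.15 with 8 depleted, against −0.20 for those 8 hosts. Among these depleted members, Snora74a, Snora16a and Snord12 reached the minimum through the input alone, which favours a low value.

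Ribosomal protein genes held 25 members, of which 24 were tested and 6 depleted, with a median of −1.44 against −0.47 for the 20 hosts of tested members. Of all 21 tested hosts of this kind, 4 were depleted, and the share of all tested genes was 14.0%. Among the depleted members, Snora33, Snora52 and Snord14a reached the minimum through the input alone, which favours a low value. Rpl32, the host of Snora7a, was itself depleted, with 36757, 15471 and 15809 counts and −1.27 (SE 0.05, adjusted p = 2.00e-37, edgeR). So was Rps13, the host of Snord14a, at −1.02 with 19870, 10023 and 10183 counts. Rpl12 (−0.59), Rpl27a (−0.24), Rpl4 (−0.50) and Rpl5 (−0.06), the hosts of Snora65, Snora3, Snord16a and Snord21, were not called. In Rps12, Snora33 and Snord100 together had 46 counts in the input against 3 and 10, a ratio of 0.137 (interval 0.0681 to 0.259), with the host at −0.37. Both reached the minimum through the input alone, so their selection favoured a low ratio. Snord100 itself was called with a fixed dispersion alone (adjusted p = 0.0179, edgeR, from 0.0179 to 0.313 over the alternatives).

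Other protein-coding genes held 22 members, of which 14 were tested and 7 depleted, with a median of −1.88 against −0.46 for the 13 hosts of tested members. Of all 16 tested hosts of this kind, 1 was depleted and 1 enriched, against 14.0% and 15.2% of all tested genes. Among the depleted members, Snora2b, Snord2, Snord45b and Snord17 reached the minimum through the input alone, which favours a low value. Snx5, the host of Snord17, was depleted, at −1.09 with 21597, 10242 and 10547 counts, and Tpt1, the host of Snora31, stood at −0.63. The mRNA of Kansl2, a subunit of a histone acetyltransferase complex, had 4086 counts in the input, 6854 in IP1 and 7194 in IP2, at 0.74 (SE 0.07, adjusted p = 3.92e-16, edgeR), short of the fold threshold. Snora2b and Snora34 within it had 36, 3 and 7 counts together, a ratio of 0.135 (interval 0.0598 to 0.278), which rests mainly on Snora2b and its selection through the input, since Snora34 had 8, 3 and 3 counts and was not tested. The one enriched host, 2410002F23Rik, had 2798, 7659 and 8494 counts and rose by 1.49 (SE 0.07, adjusted p = 1.70e-30, edgeR), and its member Snord88c had 12, 8 and 4 counts and was not called.

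The members were set beside the other genes of up to 300 bases, of which 126 were tested. Of these, 60 are annotated as snoRNA or snRNA under other symbols, and 27 of the 60 (45.0%) were depleted and none enriched, with a median of −1.94. Of the 66 with other annotations, 17 (25.8%) were depleted and 2 (3.03%) enriched, with a median of −0.76, against 14.0% and 15.2% of all tested genes. Among the 66, the 18 miRNA genes had a median of −1.70 with 5 depleted, the 20 lncRNA genes −0.62 with 2 depleted and the 17 pseudogenes −0.28 with 3 depleted. The 4 tRNA genes had a median of −5.35 with 3 depleted, and the 4 protein-coding genes −4.50 with 2 depleted. H/ACA members lay at −1.91 and C/D members at −1.16, and no test set them apart from these groups. The part of length, as against the kind of RNA, was not tested. Here, as among the members, a gene could pass the filter on low counts through the input alone, which favours a low value. How many of these 126 did so is not given.

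**Figure D5:**
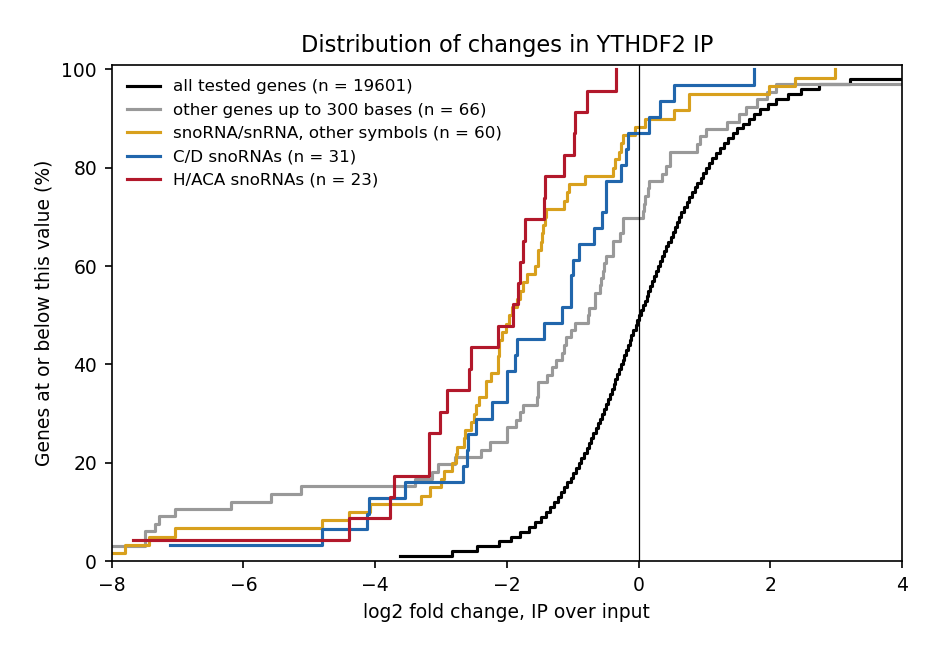
Cumulative share of genes (y axis, %) at or below each fitted log2 fold change of IP over input (x axis, cut at both ends) for all 19601 tested genes, 60 short genes annotated as snoRNA or snRNA under other symbols, 66 other genes of up to 300 bases, 31 C/D and 23 H/ACA snoRNAs. The lowest H/ACA and C/D values are those of Snora74a and Snord89, which had no IP count and whose fitted value depends on the prior count of the fit. The medians of the short groups, in that order, are −1.94, −0.76, −1.16 and −1.91, and that of all genes is 0.01.

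The mRNAs of the proteins that bind snoRNAs were measured well in all libraries. Of 21 genes of snoRNA and Cajal body particles, 5 (23.8%) were depleted and none enriched, with a median of −0.41, against 14.0% and 15.2% of all tested genes. Dkc1, which encodes dyskerin, had 9939 counts in the input, 2135 in IP1 and 2340 in IP2, and fell by 2.19 (SE 0.07, adjusted p = 3.44e-43, edgeR). Naf1, an assembly factor of H/ACA particles, had 2176, 607 and 457 counts and fell by 2.07 (SE 0.12, adjusted p = 2.13e-25, edgeR). Nop10, another core H/ACA protein, had 4325, 1850 and 1836 counts and stood at −1.27. The last 2 were Coil, which encodes the Cajal body scaffold coilin, at −1.11 with 2037, 988 and 956 counts, and Ruvbl1, an ATPase of particle assembly, at −1.03 with 5620, 2689 and 2957. The remaining core H/ACA genes Gar1 (0.47) and Nhp2 (0.19) and the C/D genes Fbl (−0.73), Nop56 (0.37), Nop58 (−0.96) and Snu13 (−0.22) were not called.

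Genes of the synthesis, capping and transport of small nuclear RNAs moved in both directions, with 6 of 23 enriched (26.1%, against 15.2% of all tested genes) and 5 depleted (21.7%, against 14.0%) and a median of −0.35. The enriched were Mepce, which caps 7SK RNA, with 2434, 7540 and 8247 counts (log2 fold change 1.66, adjusted p = 8.91e-33, edgeR), Phax, the adaptor of snRNA export, with 2118, 5658 and 5613 (1.37, adjusted p = 5.61e-27, edgeR), Snupn, an snRNA import adaptor, with 917, 2360 and 2274 (1.30), and the promoter-binding SNAPc subunits Snapc2 (1.30), Snapc4 (1.11) and Snapc5 (1.39). The depleted were 2 other subunits of the same complex, Snapc1 (−1.22) and Snapc3 (−1.51), the Integrator subunits Ints4 (−1.37) and Ints11 (−1.63), and Ice2 of the little elongation complex (−1.02). All 23 are mRNAs with at least 313 counts in each library, and each of the 11 calls had both IP libraries on the same side of the input.

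Other small structured RNAs were mostly near or below the filter, with 5 of 13 tested and 2 of the 5 depleted, against 14.0% of all tested genes. Terc, the telomerase RNA, which carries an H/ACA domain and binds dyskerin, had 63 counts in the input, 16 in IP1 and 24 in IP2, and fell by 1.69 (SE 0.55, adjusted p = 0.00583, edgeR). Rny1, a Y RNA, had 22, 0 and 0 counts and was depleted (adjusted p = 0.000865, edgeR). With no IP count, Rny1 passed the filter on low counts through the input alone, which favours a low value. Rn7sk, the 7SK RNA that holds the elongation factor P-TEFb inactive, had 200, 244 and 294 counts, above the input in both IPs but not called, at 0.39 (SE 0.24, adjusted p = 0.154, edgeR). Rpph1, the RNA of RNase P, had 65, 46 and 32 counts, and Rmrp, that of RNase MRP, 20, 17 and 2, and neither was called.

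Of the 98 named genes below the minimum, 32 had 1 to 9 counts in all and 66 had none. Together they held 70 counts in the input, 17 in IP1 and 12 in IP2, 20.2% of the input level on average. Just inside the minimum stood Snora21 with 6, 4 and 0 counts, Snord14d with 7, 2 and 1 and Snora30 with 2, 0 and 8, and just outside it Snord42a with 4, 1 and 3 and Scarna10 with 6, 0 and 0. A gene at 0 need not be silent. Of the 66, 18 overlap an exon of another gene, where reads count for neither, and of all 165 named genes, 17 C/D and 5 spliceosomal genes share their whole sequence with another row, where reads map to several places. No member shared its sequence with another row. Of the members, 3 are also annotated on an alternate scaffold and 1, Snora34, overlaps an exon of another gene, so reads of these may have been left out.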

How the data were processed

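Values were the raw counts of reads per gene that the authors deposited for 1 input and 2 YTHDF2 IP libraries. Per the labels' processing notes and the file headers, reads were handled with fastp 0.19.4, HISAT2 2.2.1 (mm10) and featureCounts 2.0.3 over exons of the RefSeq annotation. Counting was in paired-end mode without counting pairs, so each mate counted on its own and sampling noise exceeds what the counts imply, and strand was not used. By the defaults of that counter, reads over several genes or mapped to several places were left out.

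Members were taken by symbol and summed count, and Rnu symbols of U3 and U73, which are C/D snoRNAs, would have been placed in that class. The members and lists were chosen with earlier results of these data known. The analysis used edgeR 4.0.16 in R 4.3.3, with the filter filterByExpr, which left 19601 genes, TMM factors (0.957, 1.02 and 1.02), robust dispersions and the quasi-likelihood test with Benjamini-Hochberg adjustment over all genes. There is 1 residual degree of freedom per gene, from the IP libraries. Calls needed an adjusted p under 0.05 and a fold over 2. Fitted values use a prior count of 0.125. Each SE is the absolute log2 fold change divided by the square root of the test's F statistic, not an error estimated by the fit itself. The floor was 3 counts per library, 0.0848, 0.0831 and 0.0819 CPM after TMM scaling. Ratios of summed counts have exact 95% binomial intervals, which treat mates as independent and so are too narrow even for counting error. The table held 0 columns of other samples. Code was tested on simulated data.

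Named were the 6 highest members per class by mean CPM, any enriched member, the 3 lowest depleted per class, their hosts and called genes of the related lists. Other genes were named after their values were seen. Some hosts and 1 sequence are not reported here. Alternatives were other scalings, no filter, DESeq2 1.42.0, a fixed dispersion of 0.1, halved counts, a GC correction, higher minimums and each IP library alone. The quasi-dispersion of earlier edgeR versions and sums without the most counted members were added after seeing the data.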

Additional observations from a re-analysis of the deposited data

How the results depend on the processing

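No member was enriched under any alternative that could be tested, although Snord35b was above the input at an unadjusted p under 0.05 with total count scaling, TPM scaling, a fixed dispersion and halved counts. The number of depleted members, 23, was 20 to 26 with other scalings, a fixed dispersion, halved counts, the GC trend removed or the earlier quasi-dispersion, an alternative chosen after seeing the data. These are not all the same genes. With halved counts 36 members were tested and 18 of the 20 calls were among the 23, with the GC trend removed 21 of 26, and with a fixed dispersion 22 of 25. It was 15 with no filter on low counts (22.4%, against 8.37% of all genes tested), 8 with DESeq2 (14.8%, against 10.6%) and 6 of 11 tested at a minimum of 100 counts, where fewer genes are tested. All 8 of DESeq2 were among the 23. Over all genes, 2973 were enriched and 2743 depleted, and with a fixed dispersion of 0.1 these were 1577 and 1531. The share of enriched among called genes moved from 52.0% to 58.7% with total count scaling and 62.2% with TPM scaling, where the median of all genes was 0.10 and 0.15, and 22 members were depleted in each.

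The median of H/ACA members ranged from −2.60 to −1.89 and that of C/D members from −1.60 to −1.23 when 1 IP library was left out, and the C/D median was −1.49 with the GC trend removed, −1.06 with total count scaling, −1.01 with TPM scaling and −0.91 with halved counts, against −1.16. The summed C/D level was 0.506 of the input with TPM scaling, against 0.456. The summed H/ACA level was 0.305 without Snora73a and Snora73b, against 0.232, a choice made after seeing the data, and from 0.206 to 0.259 when 1 IP library was left out. Snord32a (−0.05) and Snord4a (0.24) changed sign with the GC trend removed, both uncalled. Where not given otherwise, the cause was not tested.

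No paired analysis was possible because the title of the one input library has no replicate number. Calls without 1 IP library were not made, since no residual degree of freedom is left. Depth limits most members to few counts.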

Other observations

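Genes with a miRNA symbol were also counted. Of 1182 genes with a Mir symbol, 33 had at least 10 counts and 22 were tested by edgeR. Of these, 7 were depleted (31.8%) and 2 enriched (9.09%) in YTHDF2 IP, against 14.0% and 15.2% of all tested genes, with a median log2 fold change of −1.61 and summed counts of 2163 in the input, 1317 in IP1 and 1341 in IP2. Of the 22, 17 are up to 300 bases long, with 4 depleted and 1 enriched, and the 5 longer ones, with 3 depleted and 1 enriched, are not short precursors as annotated. Of 4 tested tRNA genes of up to 300 bases, 3 were depleted, against 14.0% of all tested genes. Genes of both kinds could pass the filter on low counts through the input alone, which favours a low value.

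Counts of 1 to 100 were even in 57.4%, 62.5% and 51.7% of the members with such counts in the input, IP1 and IP2, against 61.4%, 64.5% and 64.8% of other genes. An excess of even counts is what counting both mates of a pair gives, and it was smallest for members in IP2.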
